A study of Mus musculus with 9 samples.

Results

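The genes described here are the plasma membrane amino acid transporters of the Slc1, Slc3, Slc7, Slc36, Slc38 and Slc43 families in mouse 3T3-L1 cells. They were taken as all protein-coding rows of the deposited tables whose gene symbol starts with Slc1a, Slc3a, Slc7a, Slc36a, Slc38a or Slc43a and a number, which gave 43 of 54532 genes. The rule used symbols and no measured value. It also caught Slc7a6os, which is not a carrier but a neighbour of Slc7a6 named after it, so 42 members were carrier genes. Some of these carriers are known to work on lysosomes as well as, or in place of, the cell surface, and Slc43a3 is known to carry purine nucleobases.

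3T3-L1 is an established line of mouse preadipocytes that store fat after hormonal induction. RNA was sequenced from an Undifferentiated group, kept confluent for 3 days in DMEM with calf serum, and from a Differentiated group, then given medium with 1 µM dexamethasone, 0.5 mM IBMX, 1 µM rosiglitazone and 10 µg/mL insulin. The Lysfree group received the same inducers in medium to which no lysine was added while differentiation went on. The media of the Differentiated and Lysfree groups were made from lysine- and arginine-free DMEM with fetal bovine serum. Arginine was added back to both media, and lysine to that of the Differentiated group only. Serum and base medium thus differed from those of the Undifferentiated cells together with the inducers. Each group had 3 libraries of 1 cell line, and nothing in the labels says whether they came from separate cultures, so p-values measure the spread between these libraries.

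Cells take up amino acids through carriers that each serve a range of substrates. Lysine, arginine and ornithine enter mainly through the cationic amino acid transporters, Slc7a1 above all, and are exchanged for neutral amino acids by the light chains Slc7a6 and Slc7a7 when these are bound to the heavy chain Slc3a2. Other light chains of Slc3a2 bring in leucine and its relatives (Slc7a5, Slc7a8) or cystine (Slc7a11), while Slc1a5 and the Slc38 carriers move glutamine and other small neutral amino acids. Several of these genes are known targets of ATF4, a transcription factor made when an amino acid is short, which acts with C/EBP proteins at a composite element.

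Promoter sequences of RefSeq (build GRCm38.p6, 250 bases before to 50 bases after each annotated start) were found for 32 of the 43 genes and searched on both strands for TGATGNAAN, the core of that composite element. The letters occurred in the windows of 3 of these genes, Slc7a11, Slc1a4 and Slc7a7, while 4.5% of all 27025 genes with a window held them. No window was found for Slc1a5, Slc7a2, Slc7a3, Slc7a4, Slc7a5, Slc7a12, Slc7a13, Slc36a2, Slc38a1, Slc38a3 and Slc43a3, so these were not searched. Sequences are shown for each gene with a match. Slc7a11, Slc1a4 and Slc7a7 were each called in some comparison below, as were 21 of all 43 genes. Capitals mark the matched letters, and each run is read 5′ to 3′ on the gene's strand, which is the minus strand for all 3.
Slc7a11 (chr3:50443623-50443709): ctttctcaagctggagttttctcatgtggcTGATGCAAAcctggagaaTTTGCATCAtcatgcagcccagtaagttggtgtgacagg
Slc1a4 (chr11:20332710-20332739): agcctccagcgtgcctcctgcGTTGCATCA
Slc7a7 (chr14:54417937-54417966): tttaatttgggacctagaagcTGATGCAAC
In Slc7a11 the letters occurred at 2 places in opposite orientation, beginning 66 and 48 bases before the start. In Slc1a4 they read on the opposite strand and lay across the start, and in Slc7a7 they began at the base before 1 of its annotated starts (a further match, 141 bases before that start, is not shown). A match of letters describes the sequence alone and does not show that a factor was bound there.

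Depth ranged from 15880144 to 21806693 counts per library, with 18442 to 19536 genes detected, and 3 counts corresponded to 0.138 to 0.189 CPM. The Lysfree library numbered 1 stood apart. Its log2 CPM correlated at 0.982 with those of the other Lysfree libraries across genes, which are not independent replicates, against 0.993 between those other libraries. Without it, 13 of the 14 members called in Lysfree against Differentiated cells and 13 of 13 in Lysfree against Undifferentiated cells kept their calls, and the log2 fold changes of called members moved by at most 0.26 and 0.22. A number of these changes are also given without it. The cells' identity was checked against marker genes. The summed FPKM of 8 adipocyte markers was 314 to 395 in Undifferentiated, 6890 to 7250 in Differentiated and 292 to 408 in Lysfree libraries, and that of 8 preadipocyte or fibroblast markers was 4370 to 4800, 1070 to 1090 and 2250 to 2290. All 8 adipocyte markers had a higher mean in Differentiated than in either other group, and their sums overlapped between Undifferentiated and Lysfree libraries. Single markers differed between those groups in both directions. Adipoq averaged 57.8 FPKM in Undifferentiated and 4.18 in Lysfree cells, Cidec 36.7 and 12.0, Cebpa 22.9 and 8.23, and Cd36 16.6 and 72.7. Among the preadipocyte or fibroblast markers Col1a1 averaged 1890 and 327 FPKM, and Fn1 380 and 719. Macrophage markers summed to at most 5.01 FPKM in any library, endothelial markers to 0.272, epithelial markers to 1.72 and muscle markers to 4.27, with Adgre1, Epcam and Myod1 at 0 in all 9. In such bulk samples fewer cells of a type and less RNA per cell cannot be told apart.

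Of the 43 genes, 20 reached a group mean of at least 1 FPKM (fragments per kilobase of gene length, scaled to the size of the library, the deposited level, which allows genes to be compared). The other genes were low. Slc38a8, Slc38a11, Slc38a5, Slc7a12, Slc7a10, Slc7a9, Slc1a6 and Slc36a3 were at 0 in all 9 libraries, and with those 8 a total of 14 genes had at most 3 counts in every library, the others being Slc7a4, Slc7a13, Slc7a14, Slc7a15, Slc38a3 and Slc1a1. The absent or nearly absent genes thus included Slc7a9, the cystine and cationic amino acid exchanger of kidney and gut, and Slc7a10, a carrier known as a surface marker of white adipocytes. At this depth a count of 0 allows up to 3 counts in a library.

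**Figure D1:**
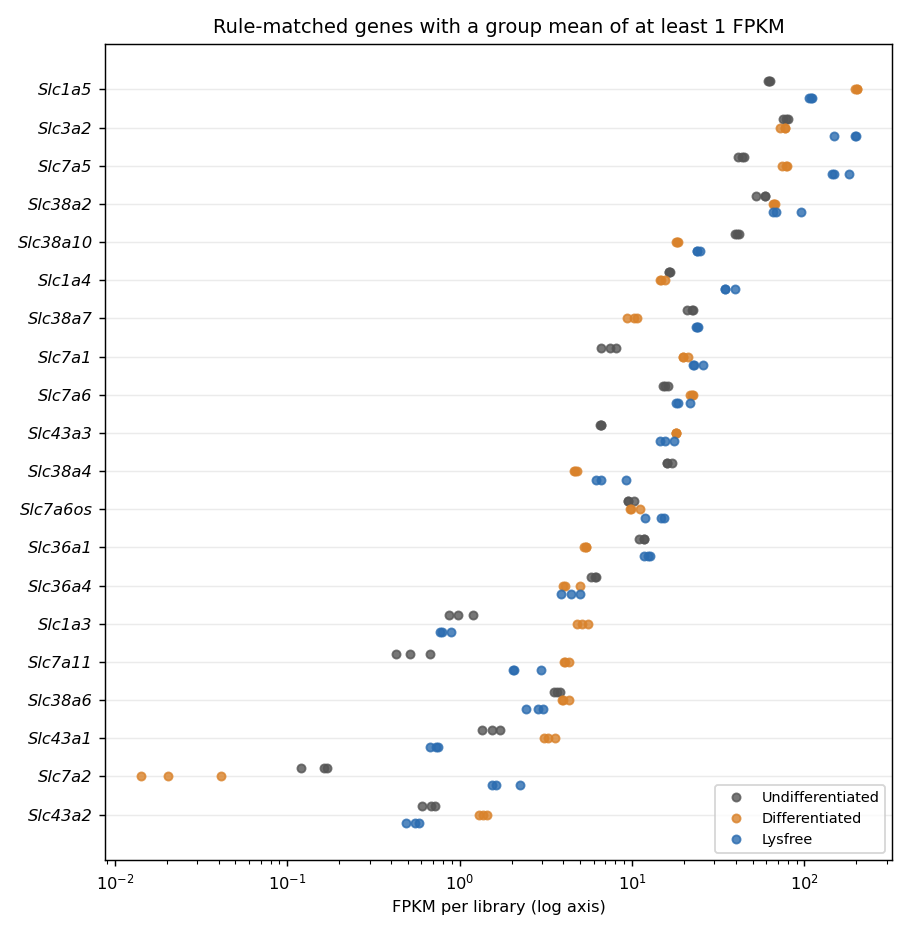
Level of the 20 genes with a group mean of at least 1 FPKM in each of the 9 libraries; the horizontal log axis is FPKM, and each point is 1 library, coloured by group. Slc1a5, Slc3a2, Slc7a5 and Slc38a2 have the largest values, Slc38a10 reaches the lowest Slc7a5 points in Undifferentiated libraries, and the spread within a group is smaller than the distance between groups for most genes, with Slc7a2 farthest apart.

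The summed level of the 42 carriers was lowest in Undifferentiated cells, at 391.6 ± 5.75 FPKM (SD, n = 3), followed by 557.7 ± 8.0 in Differentiated and 702.9 ± 17.2 in Lysfree cells, and no libraries overlapped between groups. With scaling by the library total alone the sums were 395.0 ± 6.38, 539.3 ± 9.03 and 748.2 ± 8.56 on the same scale, in the same order. Only a few genes made up most of this sum. Slc3a2, Slc1a5, Slc7a5, Slc38a2 and Slc7a1 together held 63.2 ± 0.13% of it in Undifferentiated, 78.7 ± 0.41% in Differentiated and 78.01 ± 0.71% in Lysfree cells. In Undifferentiated cells Slc3a2 led with 19.9 ± 0.83% of the sum, beside 15.9 ± 0.39% for Slc1a5 and 11 ± 0.28% for Slc7a5. In Differentiated cells Slc1a5 held 35.7 ± 0.05% of the sum, whereas in Lysfree cells it held 15.4 ± 0.67% and Slc3a2 and Slc7a5 held 25.9 ± 4.62% and 22.4 ± 2.40%. Slc7a5 led Slc3a2 in Lysfree 1, at 25.2% against 20.6%, and Slc3a2 led in the other Lysfree libraries, at 28.3% and 28.8% against 21.3% and 20.8%. The Lysfree sums were 722.8 FPKM in Lysfree 1 and 692.7 and 693.3 in the others.

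**Figure D2:**
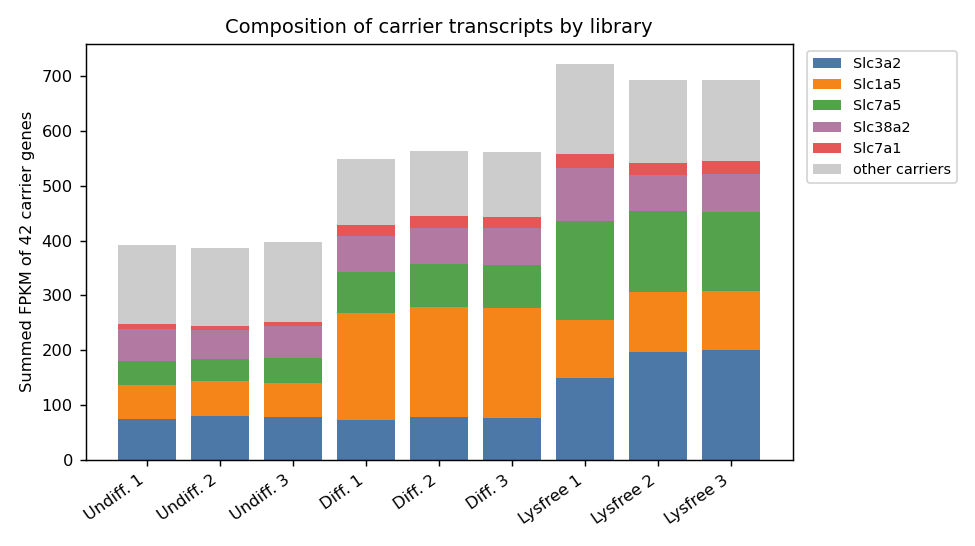
Summed FPKM of the 42 carrier genes in each library (vertical axis, starting at 0), with coloured segments for Slc3a2, Slc1a5, Slc7a5, Slc38a2 and Slc7a1 and a grey segment for the other carriers. The Differentiated bars, near 558 FPKM, have a large Slc1a5 segment, and the Lysfree bars, near 703 FPKM, have large Slc3a2 and Slc7a5 segments.

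Comparisons were made between 3 pairs of groups, each on 6 libraries, with edgeR's quasi-likelihood test on counts of all genes that had a count in any of those libraries, and Benjamini-Hochberg adjusted p-values. A gene was called when its adjusted p was under 0.05 and its change at least 2-fold. The test pools the spread between libraries across genes, so SE and p-values do not rest on the libraries of a gene alone. This pooling was fitted separately in each comparison, so the sizes of p-values are not ranked between comparisons. Log2 fold changes are given ± SE, and were called a rise or fall only where they met both conditions. Each pair of comparisons shares a group of libraries, so their values are given side by side and not as independent evidence. Differentiated against Undifferentiated asks what the induction of adipocytes did to the carriers, and 35 of the 43 genes could be tested. Of these, 16 were called (45.7%) against 21.8% of all 24402 genes tested. Higher were 10 of the 35, against 10.4% of all genes, and lower 6 of the 35, against 11.4%. FPKM of the groups did not overlap for 23 of the 35 members, against 50.9% of all genes. The median log2 fold change was 0.21 for the members and 0.02 for all genes.

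Lysfree against Differentiated asks what the lack of lysine did under the same inducers, with 34 genes tested. There 14 were called (41.2%) against a background of 18.7%. Higher were 7 of the 34, against 8.14% of all genes, and lower 7 of the 34, against 10.5%. Groups did not overlap for 24 of the 34 members, against 46.6% of all genes. The median log2 fold change was 0.18 for the members and -0.06 for all genes. Lysfree against Undifferentiated sets cells without added lysine beside the cells before induction, with 32 genes tested. Here 13 were called (40.6%) against 14.3%. Higher were 9 of the 32, against 5.52% of all genes, and lower 4 of the 32, against 8.76%. Groups did not overlap for 24 of the 32 members, against 43.5% of all genes. The medians were 0.38 and -0.01. Genes well above the detection limit are called more often, so the counts were also taken at a mean of at least 1 FPKM in the 6 libraries. There 10 of 19 members were called (52.6%) against 28.7% of all such genes in the first comparison. The shares were 7 of 18 (38.9%) against 24.6% in the second and 8 of 17 (47.1%) against 18.3% in the third. Overlap of the groups was not counted at that level.

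**Figure D3:**
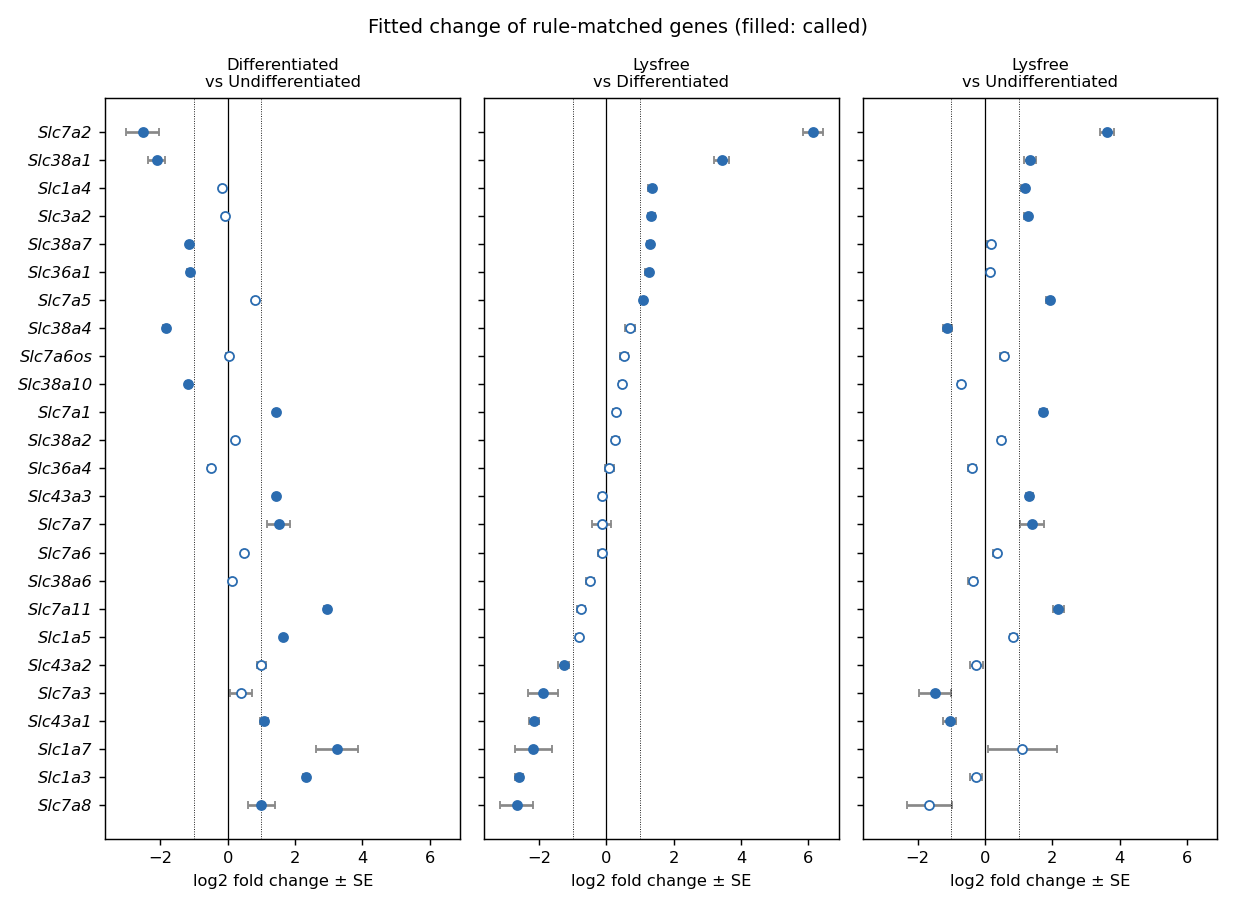
Fitted log2 fold change ± SE (horizontal axis) of 25 genes in the 3 comparisons, sorted by the change between Lysfree and Differentiated cells; filled circles are called, and dotted lines mark a 2-fold change. Slc7a2 and Slc38a1 stand at -2.53 and -2.11 in the left panel and at 6.13 and 3.43 in the middle panel, while Slc1a3, Slc1a7, Slc43a1 and Slc7a8 lie to the right of 0 on the left and to the left of 0 in the middle. Slc36a2, at 0 in Lysfree cells, and Slc3a1, with at most 5 counts, are not drawn.

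The cationic carriers, the main way in for lysine and arginine, did not move together. Slc7a1 was the dominant one in all groups and was higher after induction with or without lysine, Slc7a2 was lowest in Differentiated and highest in Lysfree cells, and Slc7a3 was lowest in Lysfree cells. Slc7a1, the widely expressed cationic carrier on chr5:148327410-148399904 (minus strand, build GRCm38 throughout), stood at 8.09, 6.62 and 7.43 FPKM in Undifferentiated, 19.8, 21.1 and 19.8 in Differentiated and 25.8, 22.7 and 22.8 in Lysfree libraries. The 6 libraries given inducers all lay above the Undifferentiated ones, and the lowest Lysfree library lay above the highest Differentiated one by less than the range within Lysfree. Slc7a1 rose between Undifferentiated and Differentiated cells (log2 fold change 1.43 ± 0.06, edgeR adjusted p = 2.6e-137). It also rose between Undifferentiated and Lysfree cells, by 1.73 ± 0.10 with an edgeR adjusted p = 2.9e-15, and by 1.65 without Lysfree 1. Between Differentiated and Lysfree cells the difference passed the p threshold but was under 2-fold (log2 fold change 0.29 ± 0.09, edgeR adjusted p = 0.009), and without Lysfree 1 it was 0.21.

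Slc7a2, a cationic carrier known for supplying arginine to nitric oxide synthase and arginase in macrophages (chr8:40862396-40922308, plus strand), stood at 0.170, 0.120 and 0.164 FPKM in Undifferentiated, 0.0142, 0.0411 and 0.0203 in Differentiated and 2.25, 1.62 and 1.54 in Lysfree libraries. No groups overlapped. Its counts were 24 to 33 in Undifferentiated, 2 to 7 in Differentiated and 273 to 362 in Lysfree libraries. Slc7a2 fell in Differentiated cells to a ratio of 0.171 (95% interval 0.0851 to 0.316, exact, counting error only) of the Undifferentiated level (log2 fold change -2.53 ± 0.48, edgeR adjusted p = 5.1e-07). From Differentiated to Lysfree cells it rose by a ratio of 71.1 (95% interval 40.5 to 138), the largest fitted rise among the members tested there (log2 fold change 6.13 ± 0.29, edgeR adjusted p = 3.5e-13, and 5.92 without Lysfree 1). Lysfree cells also exceeded Undifferentiated cells (log2 fold change 3.62 ± 0.22, edgeR adjusted p = 2.3e-15, and 3.41 without Lysfree 1). Of its 9135 exon bases, 635 are shared with the opposite-strand Gm26584, which had 0 to 1 counts. The macrophage markers summed to 1.63 to 1.92 FPKM in Undifferentiated, 3.44 to 5.01 in Differentiated and 3.62 to 4.85 in Lysfree libraries, with Adgre1 at 0. Cd68 made up most of these sums, with means of 1.65, 4.12 and 4.40 FPKM, while Csf1r averaged 0.120, 0.0340 and 0.00352. Whether macrophages had a part in the level of Slc7a2 was not tested.

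Slc7a3, the cationic carrier best known from neurons (chrX:101079210-101086020, minus strand), was at 0.397, 0.277 and 0.264 FPKM in Undifferentiated, 0.376, 0.482 and 0.409 in Differentiated and 0.0902, 0.0416 and 0.191 in Lysfree libraries. The Lysfree libraries lay below all others, at 3 to 14 counts. Slc7a3 fell between Differentiated and Lysfree cells (log2 fold change -1.89 ± 0.44, edgeR adjusted p = 0.0014), and by 2.61 without Lysfree 3. Against Undifferentiated cells the fall was smaller (log2 fold change -1.48 ± 0.47, edgeR adjusted p = 0.012), by 2.20 without Lysfree 3, and the call was lost without Undifferentiated 1 (adjusted p = 0.058) or without Lysfree 2 (adjusted p = 0.069). Summed over the 3 genes, the level of cationic carriers was 7.84 ± 0.82 FPKM in Undifferentiated, 20.7 ± 0.81 in Differentiated and 25.7 ± 2.11 in Lysfree cells (SD, n = 3). The level of Slc7a1 was 45.3 to 55.3 times that of Slc7a2 in Undifferentiated libraries, 513 to 1401 times in Differentiated and 11.4 to 14.8 times in Lysfree libraries.

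**Figure D4:**
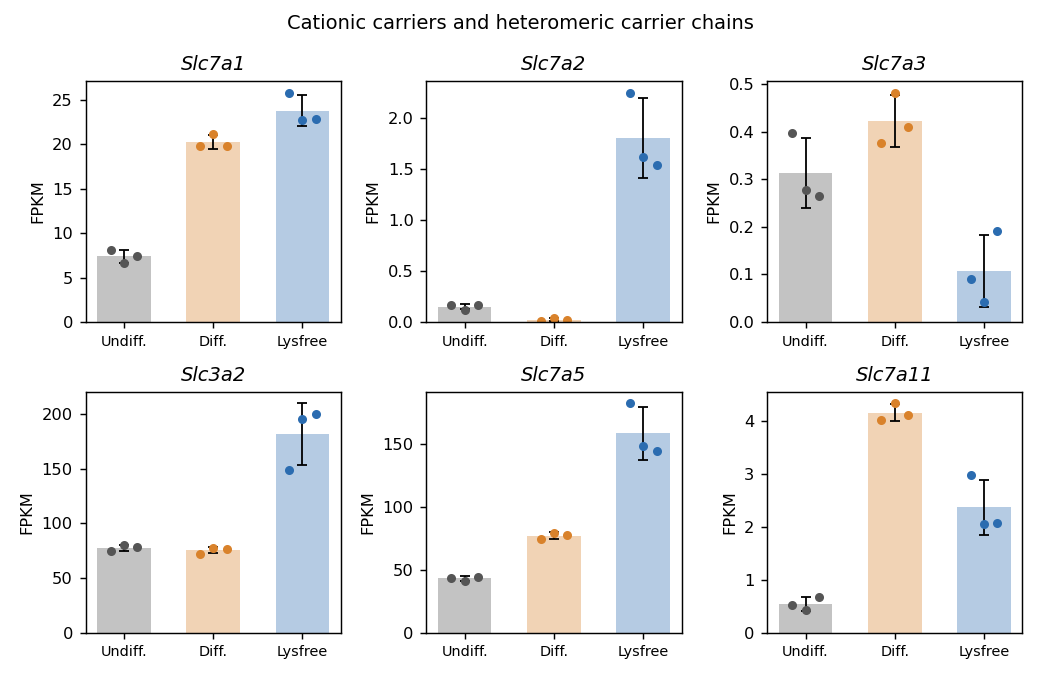
FPKM (vertical axes, each starting at 0 with its own range) of Slc7a1, Slc7a2, Slc7a3, Slc3a2, Slc7a5 and Slc7a11 in the 3 groups; bars are means, error bars SD, and points the 3 libraries of a group. Slc7a2 is near 0 in Differentiated and at 1.54 to 2.25 in Lysfree libraries, Slc3a2 and Slc7a5 are highest in Lysfree libraries, and Slc7a11 is highest in Differentiated libraries.

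The heavy chain Slc3a2 and its light chain Slc7a5, which together form the exchanger for leucine and other large neutral amino acids, were both highest in Lysfree cells. Slc3a2 (chr19:8706882-8723369, minus strand) stood at 74.8, 80.1 and 78.7 FPKM in Undifferentiated, 72.2, 77.3 and 76.7 in Differentiated and 149, 196 and 200 in Lysfree libraries. Undifferentiated and Differentiated libraries overlapped, and all Lysfree libraries lay above them, with Lysfree 1 the lowest of its group. Slc3a2 did not pass the test in Differentiated against Undifferentiated cells (log2 fold change -0.07 ± 0.05, edgeR adjusted p = 0.28). It rose from Differentiated to Lysfree cells (log2 fold change 1.33 ± 0.10, edgeR adjusted p = 8.4e-10, and 1.44 without Lysfree 1) and from Undifferentiated to Lysfree cells (log2 fold change 1.27 ± 0.11, edgeR adjusted p = 9.5e-12, and 1.37 without Lysfree 1). The other heavy chain, Slc3a1, known as the partner of Slc7a9 in the kidney, had at most 5 counts in any library and was not called in any comparison. It shares 601 of 2271 exon bases with Prepl on the opposite strand.

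Slc7a5 (chr8:121881150-121907694, minus strand) was at 43.5, 41.2 and 44.5 FPKM in Undifferentiated, 74.0, 79.1 and 77.7 in Differentiated and 182, 148 and 144 in Lysfree libraries. The groups formed 3 levels that did not overlap. Its difference between Differentiated and Undifferentiated cells passed the p threshold but was under 2-fold (log2 fold change 0.81 ± 0.05, edgeR adjusted p = 1.3e-49). From Differentiated to Lysfree cells it was called (log2 fold change 1.10 ± 0.09, edgeR adjusted p = 2.9e-09), but without Lysfree 1, its highest library, the change was 0.97 and fell short of 2-fold. Slc7a5 rose between Undifferentiated and Lysfree cells (log2 fold change 1.92 ± 0.10, edgeR adjusted p = 1.9e-16), and by 1.78 without Lysfree 1. The level of Slc3a2 relative to the summed light chains was 1.31 ± 0.08 in Undifferentiated, 0.723 ± 0.008 in Differentiated and 1.03 ± 0.27 in Lysfree cells. The last of these was split, at 0.717 in Lysfree 1 against 1.17 and 1.21 in the other libraries.

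Slc7a11, the light chain of the cystine and glutamate exchanger and the gene with a pair of matches in its promoter window, followed another course. It stood at 0.516, 0.426 and 0.677 FPKM in Undifferentiated, 4.02, 4.33 and 4.11 in Differentiated and 2.97, 2.05 and 2.07 in Lysfree libraries. The 3 groups did not overlap, with Differentiated highest. Slc7a11 rose in Differentiated cells (log2 fold change 2.94 ± 0.10, edgeR adjusted p = 1.7e-205) and was also called higher in Lysfree than in Undifferentiated cells (log2 fold change 2.18 ± 0.17, edgeR adjusted p = 1.2e-12, and 1.97 without Lysfree 1). Lysfree cells were lower than Differentiated cells by less than 2-fold (log2 fold change -0.76 ± 0.13, edgeR adjusted p = 5.1e-05, and -0.97 without Lysfree 1).

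The light chains that exchange cationic for neutral amino acids differed from each other. Slc7a6 was at 15.5, 15.1 and 16.2 FPKM in Undifferentiated, 22.3, 21.8 and 22.6 in Differentiated and 21.7, 17.9 and 18.5 in Lysfree libraries, and none of its differences reached 2-fold. In Differentiated against Undifferentiated cells the Slc7a6 log2 fold change was 0.49 ± 0.06, with an edgeR adjusted p = 4.6e-14. Slc7a7 was far lower, at 0.269, 0.165 and 0.207 FPKM in Undifferentiated, 0.507, 0.777 and 0.579 in Differentiated and 0.635, 0.475 and 0.529 in Lysfree libraries. It rose in Differentiated cells (log2 fold change 1.51 ± 0.34, edgeR adjusted p = 2.6e-05) and stood above Undifferentiated in Lysfree cells (log2 fold change 1.39 ± 0.36, edgeR adjusted p = 0.0019), with no groups overlapping in either case. Of the 3315 exon bases of Slc7a7, 232 are shared with the opposite-strand Oxa1l, which had 896 to 1750 counts, and the strand setting of the counting is not given, so reads of the overlap could belong to either gene. Slc7a8, a light chain for small and large neutral amino acids, was lower still, at 0.178, 0.0547 and 0.125 FPKM in Undifferentiated, 0.271, 0.236 and 0.223 in Differentiated and 0.0341, 0.0210 and 0.0515 in Lysfree libraries. It fell between Differentiated and Lysfree cells to a ratio of 0.153 (95% interval 0.0697 to 0.300, counting error only), with an edgeR adjusted p = 1.4e-04. The rise of Slc7a8 in Differentiated cells (log2 fold change 1.00 ± 0.41, edgeR adjusted p = 0.032) was lost without Undifferentiated 2, when it was 0.63 with an adjusted p = 0.23, and without either Differentiated 1 (adjusted p = 0.096) or Differentiated 2 (adjusted p = 0.056). With these, 9 alternative settings lost the Slc7a8 call, among them DESeq2 in place of edgeR (DESeq2 adjusted p = 0.12).

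Slc1a5 and Slc1a4, sodium-dependent exchangers of alanine, serine and cysteine, of which Slc1a5 also carries glutamine, changed under different conditions. Slc1a5 (chr7:16781340-16798274, plus strand) was at 62.1, 62.9 and 61.7 FPKM in Undifferentiated, 196, 201 and 201 in Differentiated and 106, 110 and 109 in Lysfree libraries. Differentiated libraries were highest and Undifferentiated lowest, with no overlap. Slc1a5 rose in Differentiated cells (log2 fold change 1.65 ± 0.05, edgeR adjusted p = 2.9e-229). Lysfree cells lay between, lower than Differentiated cells by less than 2-fold (log2 fold change -0.81 ± 0.08, edgeR adjusted p = 1.7e-08) and higher than Undifferentiated cells by less than 2-fold (log2 fold change 0.85 ± 0.09, edgeR adjusted p = 4.5e-09).

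Slc1a4 (chr11:20302180-20332713, minus strand) was at 16.3, 16.7 and 16.4 FPKM in Undifferentiated, 15.5, 14.6 and 14.7 in Differentiated and 39.7, 34.7 and 34.5 in Lysfree libraries. All Lysfree libraries lay above all others, while the remaining groups were close. Its difference between Differentiated and Undifferentiated cells was small (log2 fold change -0.17 ± 0.07, edgeR adjusted p = 0.028), and it rose in Lysfree against Differentiated cells (log2 fold change 1.35 ± 0.09, edgeR adjusted p = 1.8e-10, and 1.26 without Lysfree 1) and against Undifferentiated cells (log2 fold change 1.18 ± 0.10, edgeR adjusted p = 1.7e-11, and 1.09 without Lysfree 1). Of the genes with matches, Slc1a4 was thus highest in Lysfree and Slc7a11 in Differentiated cells. Slc7a7 was called higher than Undifferentiated in both of those groups. Whether the matched letters had a part in these levels was not tested.

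The glutamate and aspartate carriers Slc1a3 and Slc1a7 were highest in Differentiated cells, Slc1a7 at a low level. Slc1a3, known from glia, was at 0.869, 1.19 and 0.973 FPKM in Undifferentiated, 5.12, 4.80 and 5.57 in Differentiated and 0.893, 0.786 and 0.773 in Lysfree libraries. It rose in Differentiated cells (log2 fold change 2.32 ± 0.10, edgeR adjusted p = 3.9e-123) and fell in Lysfree against Differentiated cells (log2 fold change -2.59 ± 0.13, edgeR adjusted p = 7.6e-13). Lysfree and Undifferentiated libraries of Slc1a3 overlapped (log2 fold change -0.26 ± 0.18, edgeR adjusted p = 0.3). Slc1a7, a carrier of retinal neurons, had 8 to 24 counts in Differentiated, 0 to 4 in Undifferentiated and 2 to 6 in Lysfree libraries. Differentiated cells exceeded Undifferentiated cells in Slc1a7 by a ratio of 10.0 (95% interval 4.31 to 28.6, counting error only), and the fitted log2 fold change of 3.25 ± 0.63 (edgeR adjusted p = 1.0e-06) became 4.08 without Undifferentiated 2. Slc1a7 fell in Lysfree against Differentiated cells to a ratio of 0.215 (95% interval 0.104 to 0.408), with a fitted log2 fold change of -2.17 ± 0.55 (edgeR adjusted p = 0.0028) that became -1.91 without Lysfree 1. Slc1a2, the main glutamate carrier of astrocytes, had at most 8 counts in any library.

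The system A carriers Slc38a1, Slc38a2 and Slc38a4, sodium-coupled importers of small neutral amino acids, lie on chromosome 15 within 1 stretch, Slc38a1 at 96571418-96642913, Slc38a2 at 96687392-96699730 and Slc38a4 at 96994820-97055956, all on the minus strand. Slc38a2, a carrier known to be induced when amino acids are withdrawn, had the highest level of the 3. It was at 58.7, 52.5 and 59.2 FPKM in Undifferentiated, 66.7, 66.1 and 67.9 in Differentiated and 95.7, 66.1 and 68.8 in Lysfree libraries. Lysfree 1 lay far above its group, and the remaining Lysfree libraries lay within or next to the Differentiated range. The log2 fold change of Slc38a2 between Lysfree and Differentiated cells did not pass the threshold (log2 fold change 0.26 ± 0.11, edgeR adjusted p = 0.056), and without Lysfree 1 it was 0.06. Against Undifferentiated cells Slc38a2 was higher by less than 2-fold in both other groups (log2 fold change 0.21 ± 0.05, edgeR adjusted p = 6.2e-05 in Differentiated and log2 fold change 0.48 ± 0.11, edgeR adjusted p = 5.3e-04 in Lysfree), the latter 0.27 without Lysfree 1.

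Slc38a1 was lowest in Differentiated and highest in Lysfree cells, as was Slc7a2, at 0.289, 0.225 and 0.257 FPKM in Undifferentiated, 0.0750, 0.0530 and 0.0539 in Differentiated and 0.693, 0.645 and 0.541 in Lysfree libraries. The groups did not overlap. Slc38a1 fell in Differentiated cells (log2 fold change -2.11 ± 0.26, edgeR adjusted p = 1.4e-15), was higher in Lysfree than in Differentiated cells (log2 fold change 3.43 ± 0.22, edgeR adjusted p = 4.5e-11, and 3.34 without Lysfree 1) and higher in Lysfree than in Undifferentiated cells (log2 fold change 1.33 ± 0.19, edgeR adjusted p = 3.8e-07, and 1.23 without Lysfree 1). Slc38a4 was at 15.9, 16.0 and 17.1 FPKM in Undifferentiated, 4.58, 4.65 and 4.79 in Differentiated and 9.21, 6.58 and 6.16 in Lysfree libraries, highest in Undifferentiated cells. It fell in Differentiated cells (log2 fold change -1.83 ± 0.08, edgeR adjusted p = 1.0e-115) and was lower in Lysfree than in Undifferentiated cells (log2 fold change -1.11 ± 0.13, edgeR adjusted p = 7.1e-09, and -1.34 without Lysfree 1). Between Lysfree and Differentiated cells the Slc38a4 difference was under 2-fold (log2 fold change 0.71 ± 0.14, edgeR adjusted p = 2.8e-04), and without Lysfree 1 it was 0.49.

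Slc38a7 and Slc36a1, both known from lysosomes, were lower in Differentiated cells than in the other groups. Slc38a7, which exports glutamine and asparagine from lysosomes, was at 22.4, 20.8 and 22.5 FPKM in Undifferentiated, 10.7, 10.2 and 9.34 in Differentiated and 23.5, 24.1 and 23.8 in Lysfree libraries. Slc36a1, a proton-coupled exporter of small neutral amino acids found on lysosomes and the cell surface, was at 11.8, 10.9 and 11.8 FPKM in Undifferentiated, 5.25, 5.44 and 5.44 in Differentiated and 11.8, 12.7 and 12.4 in Lysfree libraries. For both genes the Differentiated libraries lay apart and the Lysfree libraries were at or close to the Undifferentiated range. Slc38a7 fell in Differentiated cells (log2 fold change -1.14 ± 0.07, edgeR adjusted p = 5.9e-62) and rose in Lysfree against Differentiated cells (log2 fold change 1.30 ± 0.10, edgeR adjusted p = 5.4e-10). Slc36a1 likewise fell (log2 fold change -1.13 ± 0.08, edgeR adjusted p = 2.1e-49) and rose (log2 fold change 1.26 ± 0.10, edgeR adjusted p = 1.6e-09). Lysfree and Undifferentiated cells differed by 0.17 ± 0.10 for Slc38a7 and 0.14 ± 0.10 for Slc36a1 on the log2 scale, with edgeR adjusted p = 0.22 and 0.33. Slc38a9, the lysosomal arginine sensor that signals to mTORC1, stayed under 1 FPKM with at most 235 counts and was not called in any comparison.

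Slc36a2, a proton-coupled carrier described as a surface marker of brown and beige adipocytes, was measured in Differentiated cells and had no counts in Lysfree cells. Its FPKM was 0.0433, 0.0980 and 0.0959 in Undifferentiated, 0.655, 0.709 and 0.970 in Differentiated and 0 in all Lysfree libraries, from 3 to 7 counts in Undifferentiated and 33 to 51 in Differentiated libraries. Differentiated cells exceeded Undifferentiated cells in Slc36a2 by a ratio of 9.80 (95% interval 5.72 to 18.0, counting error only), with an edgeR adjusted p = 1.8e-15. Lysfree cells were at least 15.2-fold lower than Differentiated cells, against a floor of 3 counts per library, and were called with an edgeR adjusted p = 2.4e-08. Against Undifferentiated cells they were at least 1.57-fold lower (edgeR adjusted p = 0.011), and leaving out Undifferentiated 3 ended that call (adjusted p = 0.054). Slc36a2 lies next to Slc36a1, at chr11:55158470-55185077 on the minus strand against chr11:55204350-55236330 on the plus strand. The neighbours thus differed in their course, Slc36a1 being lowest and Slc36a2 highest in Differentiated cells.

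Among the remaining Slc38 and Slc36 genes, Slc38a10 was at 40.4, 41.5 and 39.8 FPKM in Undifferentiated, 18.4, 18.2 and 17.9 in Differentiated and 23.7, 23.8 and 24.7 in Lysfree libraries and fell in Differentiated cells (log2 fold change -1.18 ± 0.06, edgeR adjusted p = 4.6e-99). In Lysfree cells Slc38a10 was between the other groups, under 2-fold from either (log2 fold change 0.47 ± 0.09, edgeR adjusted p = 1.3e-04 against Differentiated and log2 fold change -0.71 ± 0.10, edgeR adjusted p = 2.2e-07 against Undifferentiated). Slc38a6 ranged from 2.44 to 4.29 FPKM over all libraries and Slc36a4, a carrier of proline and tryptophan, from 3.88 to 6.15, and neither was called in any comparison. Slc7a6os, the member that is no carrier, ranged from 9.5 to 15.3 FPKM and was not called either, with a log2 fold change of 0.57 ± 0.12 in Lysfree against Undifferentiated cells (edgeR adjusted p = 1.7e-04).

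The Slc43 carriers Slc43a1 and Slc43a2 let leucine and other large neutral amino acids through without exchange, and were lower in Lysfree than in Differentiated cells. Slc43a1 was at 1.71, 1.35 and 1.54 FPKM in Undifferentiated, 3.26, 3.10 and 3.58 in Differentiated and 0.747, 0.725 and 0.676 in Lysfree libraries, with no overlap between groups. It rose in Differentiated cells (log2 fold change 1.09 ± 0.12, edgeR adjusted p = 4.2e-20), fell in Lysfree against Differentiated cells (log2 fold change -2.14 ± 0.15, edgeR adjusted p = 2.3e-10) and was lower in Lysfree than in Undifferentiated cells (log2 fold change -1.05 ± 0.19, edgeR adjusted p = 2.9e-05). Both calls against Undifferentiated cells sat at the fold threshold, and were lost at 0.998 in Differentiated without Undifferentiated 2 and at -0.96 in Lysfree cells without Undifferentiated 1. Slc43a2 was at 0.715, 0.686 and 0.603 FPKM in Undifferentiated, 1.29, 1.45 and 1.36 in Differentiated and 0.487, 0.553 and 0.580 in Lysfree libraries. It fell in Lysfree against Differentiated cells (log2 fold change -1.27 ± 0.16, edgeR adjusted p = 8.8e-07), and its difference between Differentiated and Undifferentiated cells was just short of 2-fold (log2 fold change 1.00 ± 0.13, edgeR adjusted p = 2.2e-13). Slc43a2 shares 922 of 10042 exon bases with the opposite-strand Gm45606, which had 0 to 4 counts.

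Slc43a3, the purine nucleobase carrier, was at 6.59, 6.53 and 6.57 FPKM in Undifferentiated, 18.1, 18.0 and 18.1 in Differentiated and 17.5, 15.6 and 14.5 in Lysfree libraries. Both groups given inducers lay above the Undifferentiated libraries. Slc43a3 rose in Differentiated cells (log2 fold change 1.43 ± 0.07, edgeR adjusted p = 4.1e-85) and in Lysfree against Undifferentiated cells (log2 fold change 1.32 ± 0.11, edgeR adjusted p = 1.4e-11, and 1.22 without Lysfree 1), while Lysfree and Differentiated cells differed by -0.12 ± 0.10, with an edgeR adjusted p = 0.37. Without Lysfree 1 that difference was -0.22 with an edgeR adjusted p = 7.2e-04, still under 2-fold. Slc7a1, Slc7a7 and Slc43a3 were thus called higher than Undifferentiated in both groups given inducers, with no call between those groups, and so was Slc7a11.

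Amino acid carriers outside these families were taken from a list of 24 symbols, of which 23 were in the tables. In Differentiated against Undifferentiated cells 3 were called higher and 3 lower of 15 tested (10.4% and 11.4% of all genes), in Lysfree against Differentiated cells 5 higher and 3 lower of 18 (8.14% and 10.5%), and in Lysfree against Undifferentiated cells 3 higher and 1 lower of 17 (5.52% and 8.76%). The glycine carrier Slc6a9 averaged 5.90 ± 0.18 FPKM (SD, n = 3) in Undifferentiated, 4.97 ± 0.27 in Differentiated and 14.5 ± 0.84 in Lysfree cells, and rose between the latter groups (log2 fold change 1.61 ± 0.11, edgeR adjusted p = 5.8e-11). Ctns, which lets cystine out of lysosomes, averaged 19.2 ± 1.60, 7.89 ± 0.49 and 19.5 ± 2.53 FPKM, with a rise in Lysfree against Differentiated cells (log2 fold change 1.36 ± 0.11, edgeR adjusted p = 2.7e-09) after a fall in Differentiated cells (log2 fold change -1.30 ± 0.08, edgeR adjusted p = 2.0e-63), as for Slc38a7 and Slc36a1. The creatine carrier Slc6a8 averaged 32.1 ± 1.76, 9.23 ± 0.40 and 35.7 ± 1.61 FPKM and was called in the same directions (log2 fold change -1.83 ± 0.06, edgeR adjusted p = 2.7e-185 and log2 fold change 2.01 ± 0.09, edgeR adjusted p = 2.3e-13). The lysosomal carrier of histidine and peptides Slc15a4 averaged 3.95 ± 0.27, 3.17 ± 0.41 and 6.70 ± 0.46 FPKM and rose in Lysfree against Differentiated cells (log2 fold change 1.14 ± 0.13, edgeR adjusted p = 1.9e-07). Pqlc2, which exports lysine and arginine from lysosomes, averaged 2.99 ± 0.41, 2.07 ± 0.07 and 3.51 ± 0.58 FPKM, and its difference between Lysfree and Differentiated cells was under 2-fold (log2 fold change 0.83 ± 0.16, edgeR adjusted p = 2.4e-04). The taurine carrier Slc6a6 ranged from 29.9 to 34.0, 29.6 to 30.3 and 22.0 to 26.2 FPKM in the 3 groups and was not called. The 3 carriers called lower in Lysfree against Differentiated cells were all under 1 FPKM, as was Slc6a12 among those called higher. These genes are named after their values were seen. Slc6a12 was at 0.0687 to 0.131 FPKM in Lysfree libraries, with at most 7 counts, and at 0 in all others (edgeR adjusted p = 0.0076). Slc16a10, a carrier of aromatic amino acids, was at 0.00620 to 0.0170 FPKM in Undifferentiated, 0.394 to 0.474 in Differentiated and 0.0420 to 0.0713 in Lysfree libraries (log2 fold change -2.97 ± 0.33, edgeR adjusted p = 2.1e-07). Slc17a9, a vesicular nucleotide carrier, was at 0.128 to 0.293, 0.364 to 0.484 and 0.0164 to 0.0711 FPKM (log2 fold change -3.32 ± 0.53, edgeR adjusted p = 2.3e-05). Slc15a3 was at 0.0293 to 0.101 FPKM in Differentiated libraries and at 0 in all others.

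Of 16 genes of the amino acid response, 6 were called higher and 0 lower in Differentiated against Undifferentiated cells, where 10.4% and 11.4% of all genes were. In Lysfree against Undifferentiated cells the counts were again 6 and 0 (5.52% and 8.76% of all genes), and in Lysfree against Differentiated cells 1 was called higher and 2 lower (8.14% and 10.5%). Most of these genes were above 1 FPKM, where more genes were called in either direction. At a mean of at least 1 FPKM the share was 28.7% in Differentiated against Undifferentiated cells. It was 18.3% in Lysfree against Undifferentiated and 24.6% in Lysfree against Differentiated cells. Single response genes are named after their values were seen. In the last comparison Stc2 was called higher (log2 fold change 1.90 ± 0.16, edgeR adjusted p = 2.9e-09) and Fgf21 and Nupr1 lower, with log2 fold changes of -2.73 ± 0.17 and -1.07 ± 0.20. Nupr1 lay near the 2-fold threshold and spread widely, from 13.7 to 34.8 FPKM in Lysfree against 56.7 to 61.5 in Differentiated libraries. The response genes were not refitted without Lysfree 1. Sesn2, Vldlr, Ddit3 and Chac1 had positive log2 fold changes under 2-fold in Lysfree against Differentiated cells, of 0.94 ± 0.09, 0.86 ± 0.09, 0.85 ± 0.13 and 0.67 ± 0.12, with edgeR adjusted p = 9.6e-09, 1.6e-07, 1.4e-05 and 1.0e-04. So did Atf3, at 0.35 ± 0.10 with an edgeR adjusted p = 0.0061. Atf4, Eif2ak4 and Psat1 were lower by less than 2-fold, at -0.41 ± 0.11, -0.41 ± 0.11 and -0.37 ± 0.09. Their edgeR adjusted p were 0.0037, 0.0048 and 0.0022. Asns, asparagine synthetase, averaged 68.4 ± 0.86 FPKM in Undifferentiated, 172 ± 1.08 in Differentiated and 163 ± 25.1 in Lysfree cells, and the log2 fold change of Asns between Lysfree and Differentiated cells was -0.01 ± 0.09 with an edgeR adjusted p = 0.97. Atf4 itself averaged 237 ± 10.6, 307 ± 8.74 and 221 ± 40.6 FPKM, and was not called in any comparison. The adipocyte markers moved with the groups in which Slc1a3, Slc36a2 and Slc43a1 were high and Slc38a7 and Slc36a1 low, and their part in these results was not tested. Inducers, serum, base medium and any difference in time of culture cannot be told apart in the comparisons with Undifferentiated cells. In Lysfree against Undifferentiated cells the lack of added lysine cannot be told apart from them either.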

How the data were processed

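Poly A RNA of 9 3T3-L1 libraries was sequenced, and per the submitters' processing notes reads were mapped to mm10 with HISAT2 2.0.5 and counted per gene with featureCounts 1.5.0-p3. The strand setting and the annotation release are not given in the sources used here. For 54532 genes the authors deposited raw counts and, in a further table, FPKM. In every library the deposited FPKM equalled count over length and library total times 1 constant. All 43 genes occur in GENCODE vM21, 42 with the same start and end, and coordinates are those of the deposited tables.

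Counts were tested in R 4.3.3 with edgeR 4.0.16 (glmQLFit, glmQLFTest, TMM, Benjamini-Hochberg), and the SE is the size of the log2 fold change over the square root of F. Genes and lists were chosen with earlier results of these data known. Named are the cationic carriers, the heavy chains, genes with a group mean of at least 1 FPKM or a call, and the others by their highest count. With 3 against 3 libraries an exact permutation test of 1 gene cannot pass 0.05, so single-gene p-values are those of the edgeR fit. Alternatives were DESeq2 1.42.0, limma 3.58.1 on log2(FPKM + 1) and log2(FPKM + 0.1), other scaling and filters, all libraries in 1 fit, a replicate block and leaving out each library. Scripts were tested on simulated counts.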

Additional observations from a re-analysis of the deposited data

How the results depend on the processing

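The number of members called in Differentiated against Undifferentiated, Lysfree against Differentiated and Lysfree against Undifferentiated cells was 16, 14 and 13. It was 16, 14 and 13 with DESeq2. It became 8, 8 and 8 with limma on log2(FPKM + 1), where a pseudocount of 1 exceeds the level of the low genes, and 22, 22 and 20 with no fold change threshold. Leaving out each library in turn gave 15 to 17, 13 to 15 and 11 to 15. Without Lysfree 1 the counts that it enters were 13 and 13. The labels number the replicates alike in each group. Deviations from the group means of libraries with the same number correlated at -0.084 to 0.115, over 0.1 in 2 of 9 pairs. Deviations within a group of 3 depend on one another, so these values cannot decide whether libraries of the same number were handled together. With a replicate block the counts were 17, 14 and 12: the fall of Slc36a2 in Lysfree against Undifferentiated cells had an adjusted p = 0.054 and Slc43a2 in Differentiated against Undifferentiated cells reached 2-fold. Of 1126 alternative values for 81 changes of single genes, 1074 kept their direction and side of the threshold. In 37 a call was lost and in 10 gained, and 5 reversed, none of them called. Leaving out each library gave -0.0258 (without Differentiated 3) to 0.0854 for Slc7a6os in Differentiated against Undifferentiated, -0.0285 (without Lysfree 1) to 0.206 for Slc36a4 and -0.273 to 0.0708 (without Differentiated 2) for Slc7a7 in Lysfree against Differentiated, and -0.739 to 0.82 (without Undifferentiated 3; 0.38 without Lysfree 1) for Slc3a1 in Lysfree against Undifferentiated cells; the cause was not tested. Genes under about 10 counts are limited by depth.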
